A study of Rattus norvegicus with 4 samples.

Results

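Cartilage matrix genes were described in the lining of the rat middle ear 1 week after inoculation of medium, methicillin-resistant Staphylococcus aureus (MRSA), Pseudomonas aeruginosa (PA) or both species. The group comprised 10 symbols chosen by name (ACAN, MATN1, MATN3, MATN4, SOX9, CHAD, CLEC3A, HAPLN1, SNORC and CYTL1), and each gene was represented by its feature with the highest mean level. Of the 10, 9 were found in the expression table of 27832 features, each with 1 feature, and SNORC, not among its gene names, was not analysed here. All 4 libraries came from SD (Sprague-Dawley) rats, a wild-type laboratory strain, with no allele given by the labels. The mucosal membrane was scraped from the bulla, the bony shell of the middle ear. MRSA, PA or MRSA + PA were injected through the eardrum of the right ear in 50 µL holding 10000000 CFU (colony forming units), and the control animals received medium only. The labels give neither the age of the rats nor the number of animals behind a library. There was 1 library per condition, so no difference could be set against a spread between replicates, no p-value was computed, and neighbours in an order of levels cannot be told apart from library-to-library spread.

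Cartilage resists compression because aggrecan, a very large proteoglycan, is held in the tissue on hyaluronan chains and fixed there by link protein, within a fibril network of type II, IX and XI collagens. Matrilins and other small proteins connect these fibrils with the proteoglycans, and the transcription factor SOX9 turns on many of these genes in chondrocytes. In the middle ear region, cartilage lies at the Eustachian tube and at the joints of the ossicles, and it borders on bone, tendon and muscle.

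Levels are given in FPKM, fragment counts corrected for the length of the transcript and for the size of the library. Differences are log2 ratios, computed with 0.1 FPKM added to both sides, which understates the difference of low genes. A difference of at least 2-fold on this scale was counted among the 15944 features whose mean over the 4 libraries reached 1 FPKM. Of the 9 genes found, 7 passed this filter, and HAPLN1 and MATN1 did not. ACAN, MATN3 and CLEC3A passed only through the library in which each was highest (media, PA and MRSA): without it their means were 0.731, 0.849 and 0.907 FPKM, so that their differences were partly set by the filter. Values under 0.06 FPKM in both of 2 libraries fell mostly on ratios of small whole numbers (within 0.1 on the log2 scale for 77.3% of 225 features in MRSA, 55.8% of 206 in PA and 75.0% of 212 in MRSA + PA, each with media). Read as whole fragments, the steps would make the libraries 1.12, 1.14 and 1.08 times as deep as media in that order. The share of such ratios expected by chance was not computed, so these depths are rough estimates only. The number of fragments behind each member is unknown. Values given without a label follow the order media, MRSA, PA and the mixed inoculum. Positions are those of the authors' table, which names no genome build.

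The defining markers of cartilage were only partly present. The summed level of the 9 genes was 124.9 FPKM with medium, 51.7 with MRSA, 40.6 with PA and 24.7 with the mixed inoculum. CHAD and MATN4 made up most of the sum in media, with 60.9% and 22.1%. MATN4 is also known outside cartilage, and for neither gene was the part that came from cartilage tested. MATN1, the matrilin most restricted to cartilage, was listed at 0 in media, PA and MRSA + PA and at 0.0219 FPKM in MRSA. COL2A1, the defining collagen of cartilage and no member of the group, had 12.02 FPKM with medium, 7.95 with MRSA, 26.5 with PA and 2.12 with the mixed inoculum, an order that differed from that of ACAN. The group is therefore described gene by gene. In RNA of a whole tissue, fewer cells of a type and less RNA per cell cannot be told apart.

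ACAN, CHAD and CYTL1 were lower with every inoculum than with medium. ACAN (aggrecan, chr1:141732130-141793989, plus strand) had 4.36 FPKM with medium, 1.54 with MRSA, 0.452 with PA and 0.202 with the mixed inoculum. The media library was 2.83-fold above MRSA, 9.64-fold above PA and 21.6-fold above MRSA + PA. On the log2 scale ACAN differed from media by -1.44, -3.01 and -3.89 in the same order, and the 4 levels descended from media through MRSA and PA to MRSA + PA.

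CHAD (chondroadherin, chr10:82111981-82115751, plus strand), a leucine-rich protein that binds collagen and integrins, had the highest mean of the group, 28.3 FPKM. Its levels were 76.1 FPKM with medium, 20.02 with MRSA, 10.7 with PA and 6.27 with the mixed inoculum. The order was that of ACAN, with log2 differences from media of -1.92, -2.82 and -3.58, and the MRSA + PA library held 8.24% of the media level.

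CYTL1 (cytokine-like protein 1, chr14:77783866-77788875, minus strand), a small secreted protein made by chondrocytes, had 6.25 FPKM with medium, 1.66 with MRSA, 0.724 with PA and 0.937 with the mixed inoculum. Its log2 differences from media were -1.85, -2.94 and -2.61. Here PA and not MRSA + PA was lowest, and these 2 libraries differed by 0.33 on the log2 scale.

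MATN4 (matrilin-4, chr3:167018918-167034976, minus strand), an adaptor of matrix fibrils, was lowest with the mixed inoculum. It had 27.6 FPKM with medium, 15.3 with MRSA, 15.1 with PA and 6.84 with the mixed inoculum. Both single species stood close to each other, at 55.5% and 54.5% of media, whereas MRSA + PA held 24.8%. The log2 difference from media was -0.85 with MRSA, -0.87 with PA and -2.00 with the mixed inoculum.

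HAPLN1 (link protein, chr2:18229739-18294458, plus strand), which locks aggrecan to hyaluronan, was under 1 FPKM throughout. Its levels were 0.842 FPKM with medium, 0.669 with MRSA, 0.699 with PA and 0.367 with the mixed inoculum. As with MATN4, the mixed library was lowest, with a log2 difference from media of -1.01, and the single species lay within -0.29 and -0.24 of media.

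MATN3 and CLEC3A stood in the opposite direction, each with media as its lowest library. MATN3 (matrilin-3, chr6:43852736-43872592, plus strand), a matrilin of growing and epiphyseal cartilage, had 0.325 FPKM with medium, 1.01 with MRSA, 3.28 with PA and 1.21 with the mixed inoculum. PA was 10.1-fold above media, and the log2 differences from media were 1.39 with MRSA, 2.99 with PA and 1.63 with the mixed inoculum. The 3 matrilins of the group thus did not share a pattern.

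CLEC3A (chr19:57554357-57564199, plus strand), a C-type lectin first known from cartilage, had 0.234 FPKM with medium, 3.01 with MRSA, 0.512 with PA and 1.97 with the mixed inoculum. Both libraries that had received MRSA were high, at 12.9-fold and 8.44-fold of media. PA was at 2.19-fold, with a log2 difference of 0.87 against 3.22 in MRSA and 2.63 in MRSA + PA.

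SOX9 (chr10:100964763-100970521, plus strand), the chondrocyte transcription factor that many epithelia also express, differed least among the 7 genes past the filter. It had 9.16 FPKM with medium, 8.45 with MRSA, 9.18 with PA and 6.93 with the mixed inoculum, so that the highest library was 1.32-fold above the lowest. Its log2 differences from media were -0.12 with MRSA, 0.00305 with PA and -0.40 with the mixed inoculum, and the sign of the value in PA turned with scaling, to -0.06 with median-of-ratios factors and -0.02 with equal FPKM sums.

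**Figure D1:**
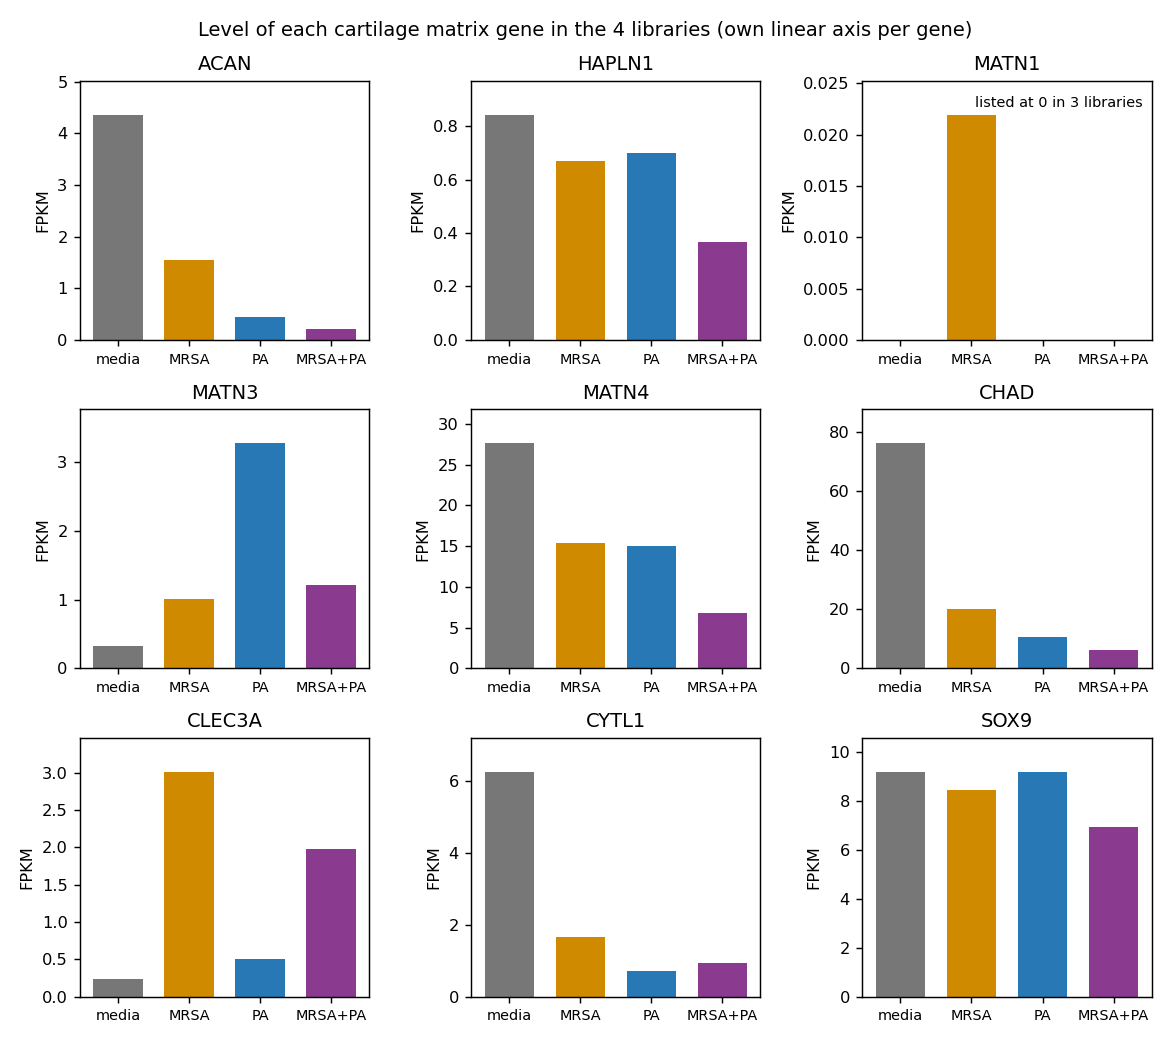
Level in FPKM (vertical axes, linear, from 0, a separate scale for each gene) of the 9 cartilage matrix genes found in the table, 1 bar for each of the 4 libraries. ACAN descends from 4.36 FPKM in media to 0.202 in MRSA + PA, MATN3 is highest in PA at 3.28, CLEC3A is highest in MRSA at 3.01, and MATN1 is listed at 0 in 3 libraries.

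As counts, 3 of the 7 genes past the filter were at least 2-fold lower than media in MRSA, where 4.95% of all tested features were, and 2 were higher, against 8.47%. In PA 3 were lower (7.80% of all features) and 1 was higher (10.05%). In MRSA + PA 4 were lower (7.83%) and 2 were higher (7.78%). Counted at 1.5-fold, 2 stood above media in PA (18.7% of all features) and 4 below it. In MRSA 2 stood above media and 4 below it at 1.5-fold. For the other 1.5-fold counts no share of all features was computed. The median log2 difference of the 7 was -0.85 with MRSA, -0.87 with PA and -2.00 with the mixed inoculum, beside 0.05, 0.07 and 0.05 over all tested features. ACAN, CHAD and CYTL1 were at least 2-fold lower in all 3 inoculated libraries, as were 3.38% of features, and MATN3 was at least 2-fold higher in all 3, as were 5.12%. Of these, ACAN passed the filter only through media and MATN3 only through PA. CLEC3A, 1 of the 2 genes higher in MRSA, passed only through MRSA. The counts are therefore a description and no support for a shared direction. These comparisons share the media library, and each of them sets 1 library against 1 library.

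**Figure D2:**
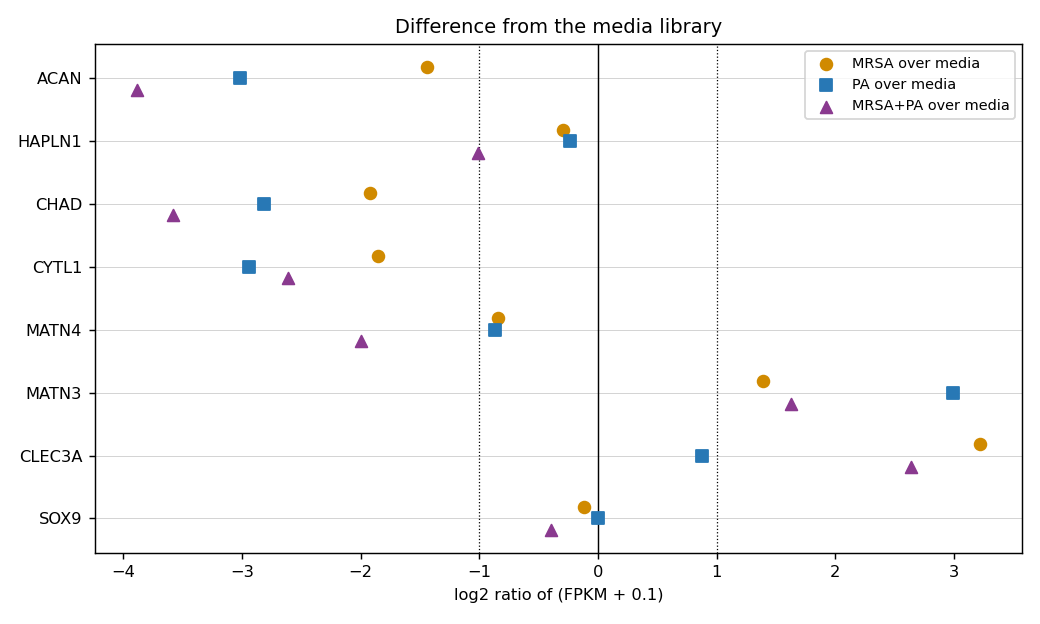
Log2 ratio of (FPKM + 0.1) over media (horizontal axis, dotted lines at 1 and -1) for 8 cartilage matrix genes (rows), 1 point per inoculated library. ACAN, CHAD and CYTL1 lie beyond -1 in all 3 libraries, MATN3 lies beyond 1 in all 3, and SOX9 lies between -0.40 and 0.00305; MATN1, listed at 0 in media, is left out.

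The start regions of 5 members were held by RefSeq's promoter table (build GRCr8), and 4 are shown. They belong to the 3 genes at least 2-fold lower with every inoculum and to MATN3, at least 2-fold higher with every inoculum. Hapln1, the other one held, is not shown. Each line gives the 250 bases before the annotated start of the gene, 5′ to 3′ on the gene's strand. Capitals mark 2 motifs, sought on either strand. The motif of a promoter box near the start is TATAAA. The motif bound by SP factors is GGGCGG, which reads CCGCCC where it lies on the opposite strand.
Acan, chr1:142390701-142390950, plus strand: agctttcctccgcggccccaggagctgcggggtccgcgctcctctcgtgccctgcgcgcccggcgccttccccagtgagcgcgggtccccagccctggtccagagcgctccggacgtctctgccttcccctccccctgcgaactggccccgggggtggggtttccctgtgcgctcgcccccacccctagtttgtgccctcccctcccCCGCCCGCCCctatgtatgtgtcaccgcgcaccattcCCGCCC
Chad, chr10:80008795-80009044, plus strand: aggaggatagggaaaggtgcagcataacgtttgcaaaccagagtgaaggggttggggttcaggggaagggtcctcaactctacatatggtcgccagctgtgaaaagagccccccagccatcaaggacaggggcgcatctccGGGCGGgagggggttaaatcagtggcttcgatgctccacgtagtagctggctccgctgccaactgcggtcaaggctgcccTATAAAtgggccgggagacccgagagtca
Cytl1, chr14:77283646-77283895, minus strand: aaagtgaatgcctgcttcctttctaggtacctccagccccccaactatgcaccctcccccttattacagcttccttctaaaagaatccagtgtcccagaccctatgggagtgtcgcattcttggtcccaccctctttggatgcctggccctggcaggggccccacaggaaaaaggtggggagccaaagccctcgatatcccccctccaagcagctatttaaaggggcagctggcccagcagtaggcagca
Matn3, chr6:37467479-37467728, plus strand: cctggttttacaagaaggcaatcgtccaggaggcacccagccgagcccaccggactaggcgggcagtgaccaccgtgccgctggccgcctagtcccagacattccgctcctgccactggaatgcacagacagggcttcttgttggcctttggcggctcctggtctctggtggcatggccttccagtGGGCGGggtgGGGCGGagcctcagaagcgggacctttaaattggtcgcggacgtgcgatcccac

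Acan held 3 copies of GGGCGG, of which 2 overlap by 2 bases, and Matn3 held 2, both on the plus strand. Chad held 1 copy, and TATAAA 29 to 24 bases before the start, and Cytl1 held neither motif. Over all 33469 windows of this length, GGGCGG stood in 30.5% and TATAAA in 12.9%. AACAAT, a core that SOX factors recognise, was searched on both strands. It was in none of the 5 windows, Hapln1 included, and in 10.3% of all windows, which says only that these letters are not in these stretches. GC content was 73.6% in Acan, 58.4% in Chad, 56.4% in Cytl1 and 64.0% in Matn3, beside a median of 51.2% over all windows. No motif searched was in the windows of all 3 genes that were at least 2-fold lower with every inoculum.

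Compared directly, the mixed inoculum gave lower levels than MRSA alone for ACAN, CHAD and MATN4. The log2 difference of MRSA + PA from MRSA was -2.44 for ACAN, -1.66 for CHAD and -1.15 for MATN4, and these were the 3 of 7 genes at least 2-fold lower (5.73% of all features). With equal FPKM sums the difference of MATN4 was -0.71, under 2-fold. None of the 7 was at least 2-fold higher (1.61%).

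Against PA alone, MRSA + PA was at least 2-fold lower for MATN3 and MATN4, 2 of the 7 (4.27% of all features), with log2 differences of -1.37 and -1.13. With equal FPKM sums that of MATN4 was -0.93, under 2-fold. CLEC3A was the only one of the 7 at least 2-fold higher (2.50%), with a difference of 1.76. ACAN and CHAD differed by -0.87 and -0.76, less than 2-fold. MATN3 passed the filter only through PA, so the count of 2 is a description only.

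Between the single species, MRSA was at least 2-fold above PA for ACAN, CYTL1 and CLEC3A (3 of 7, with 5.03% of all features), with log2 differences of 1.57, 1.09 and 2.35. It was at least 2-fold below PA for MATN3 (1 of 7, with 3.54%), with a difference of -1.60. CLEC3A passed the filter only through MRSA and MATN3 only through PA, so these counts are a description only. MATN4 differed by 0.02, and this sign turned with scaling, to -0.22 with equal FPKM sums.

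**Figure D3:**
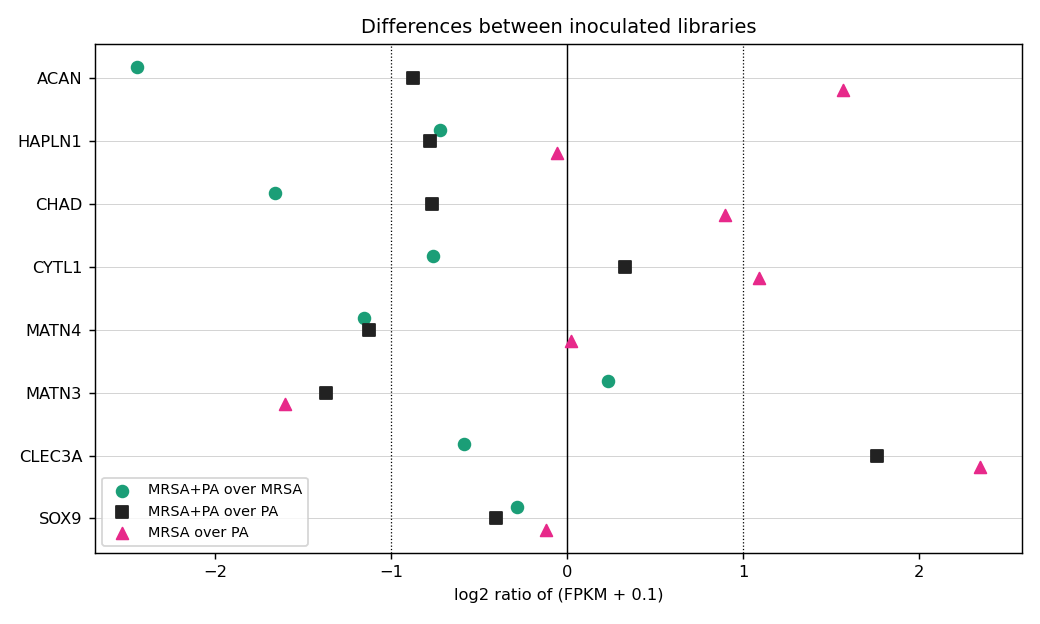
Log2 ratio of (FPKM + 0.1) between inoculated libraries (horizontal axis, dotted lines at 1 and -1) for 8 cartilage matrix genes (rows), 1 point per pair of libraries. For MRSA + PA over MRSA, ACAN lies at -2.44 and CHAD at -1.66; CLEC3A lies at 2.35 for MRSA over PA, and MATN3 at -1.60.

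The fibrillar partners of aggrecan followed more than 1 pattern. Of the 11 cartilage collagens listed, 10 passed the filter, of which 5 were highest in PA and 4 in media, beside 31.6% and 29.0% of all tested features. COL9A1, a chain of type IX collagen on the fibril surface, had 0.0642 FPKM with medium, 2.099 with MRSA, 27.3 with PA and 1.52 with the mixed inoculum, the highest library being PA as for MATN3 and COL2A1. COL11A2, a chain of type XI collagen, had 29.4 FPKM with medium, 10.2 with MRSA, 6.80 with PA and 4.98 with the mixed inoculum, the order seen for ACAN. COL11A1, its partner chain, was nearer to level, with 63.6, 61.7, 87.3 and 48.4 FPKM. The type VI collagens COL6A1, COL6A2 and COL6A3, found around chondrocytes and in most connective tissues, stood highest among the list with COL11A1, and their log2 differences from media lay between -0.71 and 0.05. The list's median log2 difference from media was -0.39 with MRSA, 0.25 with PA and -0.31 with the mixed inoculum; 2, 3 and 1 chains stood 2-fold or more above media, and 1, 1 and 2 stood as far below it. Of all tested features 8.47%, 10.05% and 7.78% stood as far above media and 4.95%, 7.80% and 7.83% as far below, so that 1 chain of 10 is near the background.

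Other proteins of cartilage differed from media in both directions. The 3 given first had media as their highest library. COMP, which links collagens in cartilage and tendon, had 42.4 FPKM with medium, 21.3 with MRSA, 2.14 with PA and 0.682 with the mixed inoculum. CILP2, a glycoprotein of cartilage layers, had 35.2, 7.92, 1.28 and 1.53 FPKM in the same order of libraries, with PA lowest. FMOD (fibromodulin), a regulator of collagen fibril width, had 276.9, 96.6, 31.7 and 15.5 FPKM.

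In this list of 22 genes, 19 passed the filter and 12 of the 19 were highest in media, beside 29.0% of all tested features. At least 2-fold lower than media were 4 with MRSA, 8 with PA and 6 with the mixed inoculum (4.95%, 7.80% and 7.83% of all features), and 1, 3 and 1 stood as far above it (8.47%, 10.05% and 7.78%). At least 2-fold above media was CHI3L1, a secreted glycoprotein, with every inoculum (log2 differences of 1.36, 1.25 and 1.51). With PA, CILP at 1.17 and LECT1 at 1.64 stood as far above it. All 3 were named after their values were seen. LECT1 had 0.851, 0.611, 2.87 and 1.02 FPKM and passed the filter only through PA. The count of 3 with PA is therefore a description only. DCN (decorin) had 1412 FPKM with medium, 597.7 with MRSA, 528.9 with PA and 568.7 with the mixed inoculum. MGP, an inhibitor of calcification, differed from media by -0.69, -0.62 and -0.33 on the log2 scale, OGN (2 features carry this name) by -0.27, -0.53 and -0.21, and BGN, a small proteoglycan like DCN, by -0.15, 0.11 and -0.48.

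**Figure D4:**
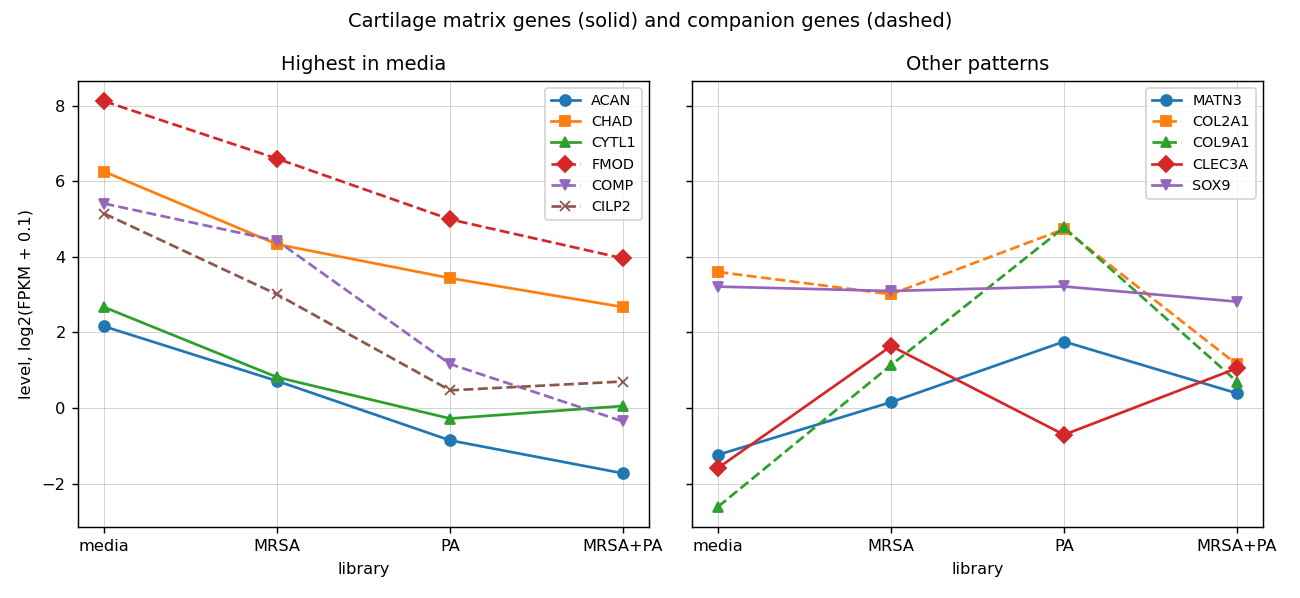
Level as log2(FPKM + 0.1) (vertical axes) in the 4 libraries (horizontal axis) of cartilage matrix genes (solid lines) and companion genes (dashed lines); a line joins the values of 1 gene. ACAN, CHAD and FMOD descend from media to MRSA + PA, while MATN3, COL2A1 and COL9A1 are highest in PA at 3.28, 26.5 and 27.3 FPKM and CLEC3A is highest in MRSA.

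Among relatives and partners of the members, 7 of 13 genes passed the filter. CLEC3B (tetranectin), a close relative of CLEC3A, had 106 FPKM with medium, 35.1 with MRSA, 15.3 with PA and 24.8 with the mixed inoculum, the reverse of CLEC3A in having media as its highest library. CHADL, a relative of CHAD, had 3.65, 1.40, 0.809 and 1.20 FPKM. MATN2, the remaining matrilin, had 30.2, 14.7, 14.3 and 15.4 FPKM (2 features carry this name). VCAN (versican), the hyaluronan-binding relative of aggrecan in soft tissues, was highest in PA, with 5.40, 5.46, 14.3 and 8.78 FPKM (2 features carry this name). CD44, the hyaluronan receptor of many cells and of white blood cells, had 49.2, 94.9, 102 and 107 FPKM. Of the 7, 3 stood 2-fold or more below media in each comparison, though not the same 3. With the mixed inoculum MATN2, at -0.97, was under 2-fold, while HAPLN3, named after its values were seen, was at -1.19. HAPLN3 had 1.78, 1.03, 0.877 and 0.723 FPKM and passed the filter only through media. The count of 3 with the mixed inoculum is therefore a description only. As far above media stood 0, 2 and 1 of the 7. Of all features 4.95%, 7.80% and 7.83% stood as far below and 8.47%, 10.05% and 7.78% as far above.

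Regulators of chondrocytes were mostly within 2-fold of media, as were SOX9 and most tested features. Of 13 listed, 9 passed the filter. The only one at least 2-fold from media was PTH1R, the receptor for parathyroid hormone and its relative PTHLH, lower in PA. Of all tested features 4.95%, 7.80% and 7.83% stood as far below media and 8.47%, 10.05% and 7.78% as far above, so that 1 of 9 is near the background. PTH1R had 76.2 FPKM with medium, 54.9 with MRSA, 36.1 with PA and 53.7 with the mixed inoculum. PTHLH had 4.26 FPKM in the mixed library and 2.34 in media, and the mixed library differed by 0.94 from MRSA and by 0.99 from PA on the log2 scale. RUNX2, RUNX3 and FGFR3 lay between -0.25 and 0.61 on the log2 scale from media.

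Enzymes that build and sulphate the chondroitin chains carried by aggrecan were near the media level. All 17 passed the filter and none was at least 2-fold from media in any of the 3 comparisons. Of all tested features 8.47%, 10.05% and 7.78% stood as far above media and 4.95%, 7.80% and 7.83% as far below. Most features were therefore within 2-fold of media too. The list medians were -0.09 with MRSA, -0.06 with PA and -0.02 with the mixed inoculum. PAPSS1, which makes the sulphate donor, had 79.5 FPKM with medium, 79.6 with MRSA, 76.3 with PA and 78.1 with the mixed inoculum, and the furthest among the named genes were SLC26A2, a sulphate carrier, at 0.79 in PA and CSGALNACT1, which starts chondroitin chains, at -0.79 in PA. UGDH, CHPF and CHST12 lay between -0.18 and 0.25.

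**Figure D5:**
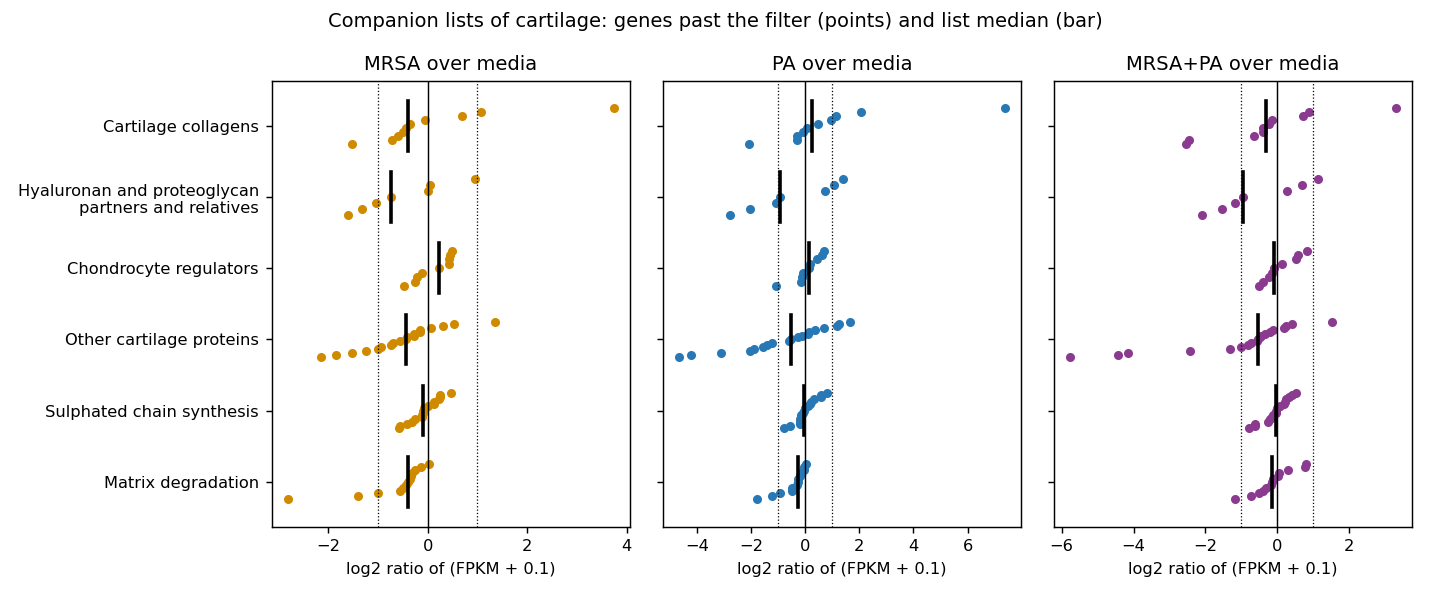
Log2 ratio of (FPKM + 0.1) over media (horizontal axes, dotted lines at 1 and -1, a separate scale in each panel) for the genes past the filter (points) in 6 companion lists of cartilage (rows), with the list median as a bar; 1 panel per inoculated library. Sulphated chain synthesis stays within the dotted lines in all 3 panels, while single collagens and cartilage proteins lie far out on both sides, such as COL9A1 at 7.38 in PA and COMP at -5.76 in MRSA + PA.

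Transcripts of neighbouring tissues also differed between the libraries. The 10 skeletal muscle genes summed to 8547 FPKM with medium, 3383 with MRSA, 11.98 with PA and 6.04 with the mixed inoculum, the order seen for ACAN and CHAD; TNNC2 and MYLPF, contractile proteins, were at 1698 and 1948 FPKM in media. The 9 tendon and fibroblast genes summed to 6309.8, 4099, 3969 and 3623 FPKM, with COL1A2 and COL3A1 the most abundant. The 10 bone genes, led by BGLAP and COL1A1, summed to 9988, 4476, 3454 and 4449 FPKM. Of these 3 lists no gene was at 0 in media, MRSA or PA, and 1 muscle gene was at 0 in MRSA + PA. The 6 epithelial genes, with EPCAM and KRT5 (2 features carry this name) highest, summed to 535, 625, 961 and 665 FPKM. Of the 6 leukocyte genes, 5 (CD68 was not among the table's names), with PTPRC and ITGAM among them, summed to 49.0, 250.4, 144 and 125 FPKM. LYZ2, a lysozyme named after its values were seen, made up 105.9 FPKM of that list in MRSA and 0.731 in PA (2 features). The part of these tissues in the values of the cartilage matrix genes was not tested.

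Patterns closest to those of 3 members were sought among 10792 named features of at least 300 bp and a mean of at least 5 FPKM, as the distance between the 4 log2 values after each gene was centred on its own mean. With 4 libraries such likeness is a description only. The 0.1 FPKM added understates the differences of low genes such as ACAN and CLEC3A. No other amount was tried for these distances, so the order of neighbours may depend on it. Closest to ACAN was FMOD at a distance of 0.20. SCD1 (a fatty acid desaturase, 1 of 3 features, 0.25), ADAMTS8 (a metalloproteinase, 0.28), ECRG4 (0.41) and MARK4 (0.48) followed. Closest to MATN4 were SSC5D at 0.23 and EGLN3 (an oxygen-sensing hydroxylase) at 0.26. After these came a retroviral POL feature at 0.32 (1 of 224 of that name), UGGT2 at 0.32 (1 of 3 features) and CIDEA at 0.36.

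CLEC3A had no neighbour as close, the nearest being TCC2_MOUSE, a T cell receptor gamma chain segment, at 0.47. This segment had 7.81 FPKM with medium, 78.6 with MRSA, 10.3 with PA and 51.8 with the mixed inoculum, high in both libraries that had received MRSA. The next were SRCRM_HUMAN, a scavenger receptor feature, at 0.50 (1 of 2 features) and the immunoglobulin segment HV303_HUMAN at 0.67 (1 of 18 features). AP2B1, a clathrin adaptor, at 0.69 (1 of 4 features) and the immunoglobulin segment HVM43_MOUSE at 0.70 followed.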

How the data were processed

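RNA of rat middle ear mucosa was sequenced with 1 library for each of 4 conditions, taken from the inoculation label. The deposited FPKM values were made by the authors with STAR 2.3.0e and Cufflinks 2.1.1 (per the submitters' processing notes), with multi-read and fragment bias correction; no genome build is named in the tables. The 3 tables of the authors' own comparisons (log2 ratios, p-values, q-values and 12 columns that repeat values of the same libraries) were not used.

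From the FPKM values, log2 ratios were taken between the 6 pairs of libraries after 0.1 FPKM was added, with a filter at a mean of 1 FPKM. Differences of at least 2-fold were counted without a test. The arithmetic was tested on simulated data. The members and lists were chosen with earlier results of these data known. Named were all members, in each cartilage list the 4 highest genes by mean and the 2 furthest from media, in other lists the 2 highest (1 such list is not reported here), and the 5 features nearest in pattern to ACAN, CLEC3A and MATN4. COL2A1, as the chondrocyte marker, and LYZ2, CHI3L1, CILP, LECT1, HAPLN3, ADAMTS4 and ADAMTS5 were named outside this rule. Promoter sequences are RefSeq's (GRCr8), and 250 bases before the start were searched. Alternatives were 1 or 0.01 FPKM added, no filter or a mean of 5 FPKM, 3 other scalings, features of a symbol summed, and 1.5-fold. Python 3.11.15, numpy 2.4.6, pandas 2.3.3 and matplotlib 3.10.9 were used.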

Additional observations from a re-analysis of the deposited data

How the results depend on the processing

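Under the pseudocounts, scalings and feature sums tried, none of 26 single-member differences of at least 2-fold between 2 libraries changed sign. These alternatives could not have changed one. Adding the same amount to both sides, or summing the 1 feature of each member, cannot turn a sign. The scaling factors, from 0.868 to 1.18, are too close together to turn a 2-fold difference. Among the smaller differences the sign turned 5 times, for SOX9 and MATN4. With equal FPKM sums the median of all tested features moved from 0.05 to -0.21 in MRSA and to 0.23 in MRSA + PA, and with equal sums over features of at least 300 bp from 0.07 to 0.24 in PA. With equal FPKM sums MATN4 was under 2-fold between MRSA + PA and MRSA, at -0.71, and PA, at -0.93, and past it between MRSA and media, at -1.11, while CYTL1 was at 0.86 between MRSA and PA and HAPLN1 at -0.87 between MRSA + PA and media. With 1 FPKM added, 1 member, CLEC3A, was at least 2-fold above media in MRSA and 1, again CLEC3A, in MRSA + PA, at 1.70 and 1.27, and MATN3 differed by 0.60 and 0.74. ACAN then differed from media by -2.16 in MRSA + PA, and the differences of ACAN and CYTL1 between MRSA and PA, at 0.81 and 0.62, and of MATN3 and CLEC3A between MRSA + PA and PA, at -0.95 and 0.98, were under 2-fold. In PA, 2 members were at least 2-fold above media with 0.01 FPKM added and 2 with equal sums over features of at least 300 bp, and 2 stood 1.5-fold or more above it, CLEC3A being the second each time. At a mean of at least 5 FPKM only CHAD, MATN4 and SOX9 were left, with 0 members higher in each of the 3 comparisons while 1 was lower with MRSA, 1 with PA and 2 with the mixed inoculum. Without the filter the median over 9 members was -0.24 in PA and -1.01 in MRSA + PA. The other counts and medians against media stayed within 1.5-fold. No replicate could be left out and no paired analysis was possible because each condition has 1 library. The number of fragments behind values under 1 FPKM is unknown, which limits ACAN, HAPLN1, CYTL1, MATN3 and CLEC3A most.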

Other observations

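Of 13 enzymes and inhibitors of cartilage matrix degradation, all past the filter, 3 were at least 2-fold higher with the mixed inoculum than with MRSA (MMP3, MMP13 and TIMP1; 1.61% of all features) and 1, MMP13, than with PA (2.50%), with list medians of 0.28 and 0.20. MMP13, the main collagenase of type II collagen, which bone cells also make, had 1366 FPKM with medium, 519.5 with MRSA, 586.5 with PA and 2388 with the mixed inoculum. Its highest level was in the mixed library, in which ACAN, CHAD and MATN4 were lowest, with log2 differences of 2.20 from MRSA and 2.03 from PA. Its next highest level was in media, in which these 3 genes were highest. A link between MMP13 and these genes was not tested. TIMP1, an inhibitor of such enzymes, had 304.6, 232 (MRSA), 297 (PA) and 523 (MRSA + PA) FPKM. MMP3 (stromelysin) was highest in media, with 46.2, 6.51, 13.3 and 20.3 FPKM. MMP2 and TIMP2 lay between -0.26 and -0.50 from media on the log2 scale. The aggrecanases ADAMTS4 and ADAMTS5, named after their values were seen, differed by 0.05 to 0.37 between the mixed and the single inocula. None of the 13 stood 2-fold or more above media with any inoculum, and 3 stood as far below it with MRSA, 2 with PA and 1 with the mixed inoculum, beside 4.95%, 7.80% and 7.83% of all features.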
